A study of Homo sapiens with 6 samples.

Results

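Genes for ion channel subunits and neurotransmitter receptor subunits were examined for nascent transcription in SBC-3, an established human small cell lung cancer cell line, after depletion of SFPQ. They were the protein-coding genes of the deposited table whose symbols begin with the family prefixes of potassium (KCN), calcium (CACN) and sodium (SCN) channels and of ionotropic (GRIA, GRID, GRIK, GRIN) and metabotropic (GRM) glutamate, GABA-A (GABR) and nicotinic acetylcholine (CHRN) receptors. A value of at least 10 normalized reads in at least 2 of 6 libraries was required. These criteria gave 86 genes of 25827 distinct features, and a kainate and a metabotropic receptor gene were left out by name. None of the family genes of the table was lost to the minimum. Cells labelled wild type were transfected with siSFPQ-2 or siSFPQ-3, which are 2 siRNAs against SFPQ, or with the control siRNA siCtrl, each at 10 nM, and were taken for PRO-seq after 72 h. Each of the 3 groups had 2 libraries. PRO-seq sequences RNA that engaged RNA polymerases extend in permeabilized cells, so a value reflects transcription under way and not the amount of mature mRNA. The comparisons ask how loss of SFPQ, an RNA- and DNA-binding protein of the nucleus, alters nascent transcription.

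Ion channels are membrane pores built from a pore-forming subunit and, often, auxiliary subunits that set trafficking and gating. Potassium channels hold or restore the resting potential, sodium channels carry the upstroke of the action potential, and calcium channels turn depolarization into calcium entry. Ligand-gated receptors for glutamate, GABA and acetylcholine are also pores, whereas metabotropic glutamate receptors signal through G proteins. Small cell lung cancer often has neuroendocrine features and electrical excitability, and nicotinic receptors and several of these channels are known in such cells. Not all of the 86 genes are neuronal: the set includes subunits of the muscle nicotinic receptor and of cardiac and epithelial channels, and GRID2IP, a scaffold protein that binds a delta glutamate receptor and shares only its prefix.

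The libraries held 12072813 to 18475158 reads over the table's features, and the value of 1 read lay between 0.797 and 1.11 normalized reads. Values below are the authors' normalized reads. Log2 changes were computed on log2(value + 1), where the pseudocount shrinks the change of genes with few reads. Whether the 2 libraries of each group are separate cultures is not stated in the labels, and p-values therefore describe the spread between these libraries, which may be technical. In bulk libraries such as these, fewer cells of a type and less nascent RNA per cell cannot be told apart. SFPQ itself had 1825 and 1972 normalized reads under siSFPQ-2 and 1922 and 2466 under siSFPQ-3, against 2294 and 2435 in siCtrl, and its log2 change of -0.22 (SE 0.11) did not pass the test (limma adjusted p = 0.137). Since siRNAs degrade mature mRNA, nascent SFPQ reads are no measure of the depletion. Of 13 neuroendocrine marker genes of small cell lung cancer, 4 passed the minimum, and CHGA and INSM1 were not among them. Their summed level was 295 to 515 normalized reads in the siSFPQ libraries and 419.8 to 453 in siCtrl. The neuron list had 5 of 9 genes past the minimum, with sums of 1037 to 1457 in the siSFPQ libraries and 1024 to 1112 in siCtrl, and RBFOX3, NEFL and NEFM were not among them. The epithelial list had 4 of 6, with sums of 3059 to 4112 in the siSFPQ libraries and 1044 to 1143 in siCtrl, and CDH1 and KRT19 were not among them. Of 8 tuft-like or YAP1 marker genes 6 passed, of which 4 rose and 1 fell, with sums of 13740.2 to 15768 in the siSFPQ libraries and 9005 to 9053 in siCtrl. The fibroblast list had 3 of 7 (508 to 639 in the siSFPQ libraries and 316 to 334 in siCtrl). The endothelial list had 1 of 6 (88.2 to 145 in the siSFPQ libraries and 38.3 to 48.7 in siCtrl), and the immune list 1 of 6 (434 to 709.9 and 730.0 to 740.4 in that order). The part of these marker shifts in the results below was not tested.

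The genes covered a wide range of nascent levels. The mean of the siCtrl libraries lay between 5.49 and 7351 normalized reads, with a median of 124. The kainate receptor gene GRIK1 was the highest at 7351 ± 1476 in siCtrl (SD, n = 2), and the next was the delta receptor gene GRID1 at 1936 ± 89.3. Per kb of RefSeq span the order was another one. The calcium channel beta subunit gene CACNB3 had 104 normalized reads per kb in siCtrl, CHRNE 65.3, the potassium channel gene KCNJ14 39.3 and GRIK1 18.2, against a median of 2.96 over the 86 genes. The span of CHRNE is overlapped over 65.8% by C17orf107, so its value is uncertain where counting does not use strand. Which part of each gene was counted is not stated in the labels or file headers, so levels per kb are approximate.

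With siSFPQ against siCtrl, 20 of the 86 genes rose and 24 fell, and 42 did not pass the test (limma, Benjamini-Hochberg adjusted p below 0.05 over 21773 features). Over all features tested, 24.8% rose and 23.2% fell, and over the protein-coding ones 28.4% rose and 23.0% fell, so the share of these genes that changed was near the background. Their median log2 change was -0.14, against -0.02 over all features tested. In 20 genes all siSFPQ libraries lay above both siCtrl libraries and in 30 they lay below, where the background was 30.3% above and 31.0% below. Of 45 potassium channel genes 9 rose and 12 fell, of 16 calcium and sodium channel genes 5 rose and 5 fell, and of 25 receptor genes 6 rose and 7 fell. Another RefSeq gene overlaps part of the span of 55 genes, of which 10 rose and 19 fell (median log2 change -0.31). Of the other 31 genes 10 rose and 5 fell (median 0.17). Shares over all features by such overlap were not computed, and the difference was not tested. Among 32 genes with a mean of at least 200 normalized reads 10 rose and 16 fell (81.25% called), and among 23 with a mean under 50 it was 4 and 2 (26.1% called). Shares over all features at these levels were not computed, so these counts have no background of like level. The number that fell was 14 when either siCtrl library was left out, and the number that rose was 16 in both cases. Over all features tested 3961 then rose and 2463 fell without the first siCtrl library, and 3622 rose and 2529 fell without the second, against 5400 and 5044 with all libraries. The median log2 change of the 86 genes was -0.21 without the first siCtrl library and -0.07 without the second. By the classes given in the authors' deposited table of profiles, for which the threshold is not stated, 20.2% of these genes with a class were up and 21.4% down, against 16.0% and 11.9% of the tested features with a class.

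Among genes with a mean of at least 50 normalized reads, the largest rises were in KCNH3 (1.71 on the log2 scale), GABRR2 (1.47), GRIK4 (1.46), KCNMB4 (1.36) and CACNA1G (1.32). The largest falls were in GRIK1 (-2.02), SCN4B (-1.60), KCNT1 (-1.18), KCNIP3 (-1.16) and KCNK3 (-1.08). They come from different families: a voltage-gated potassium channel, a GABA-A receptor subunit, a kainate receptor subunit, an auxiliary subunit and a calcium channel rose, and another kainate receptor subunit, a sodium channel beta subunit and 3 potassium channel genes fell.

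**Figure D1:**
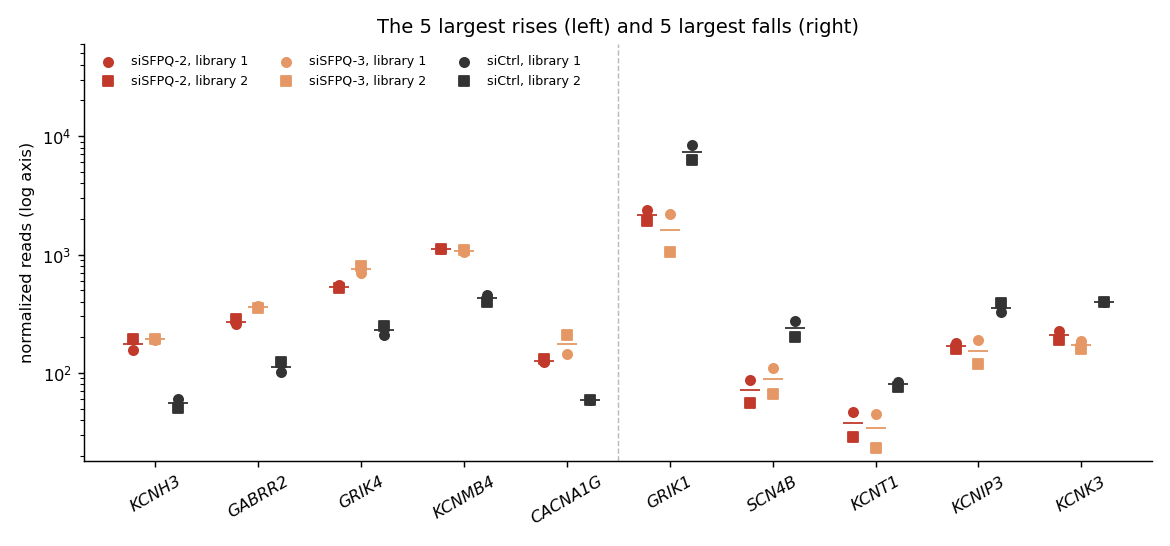
Normalized reads on a log axis for the 5 genes with the largest rise and the 5 with the largest fall, with each library as a point (circle, library 1; square, library 2) and the mean of each group as a bar. Red and orange points are the siSFPQ libraries and dark points siCtrl, and in all 10 genes the 4 siSFPQ libraries lie on the same side of both siCtrl libraries.

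The start regions of 4 of these genes are shown because the genes moved in opposite directions while their upstream sequences differ widely in composition. Each window is 300 bases of RefSeq sequence (GRCh38.p14), from 250 bases before to 50 after the annotated start. The windows are chr6:89315250-89315549 on the minus strand for GABRR2, chr11:120511498-120511797 on the plus strand for GRIK4, chr9:135701935-135702234 on the plus strand for KCNT1 and chr2:26692472-26692771 on the plus strand for KCNK3. Capitals mark the CCAAT word, the TATA box word TATAAA and the GC box word GGGCGG, each on either strand.
GABRR2: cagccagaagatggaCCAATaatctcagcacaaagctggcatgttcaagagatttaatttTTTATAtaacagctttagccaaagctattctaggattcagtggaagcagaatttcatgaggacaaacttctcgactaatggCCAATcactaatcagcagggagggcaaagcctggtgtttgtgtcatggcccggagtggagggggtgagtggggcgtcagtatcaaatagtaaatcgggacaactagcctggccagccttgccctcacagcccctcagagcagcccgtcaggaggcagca
GRIK4: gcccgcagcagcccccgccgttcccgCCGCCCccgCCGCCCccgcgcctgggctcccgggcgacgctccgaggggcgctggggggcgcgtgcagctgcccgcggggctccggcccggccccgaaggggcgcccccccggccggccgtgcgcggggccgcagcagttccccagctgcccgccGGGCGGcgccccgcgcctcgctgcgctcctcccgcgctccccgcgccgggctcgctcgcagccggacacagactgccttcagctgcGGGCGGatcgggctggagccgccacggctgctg
KCNT1: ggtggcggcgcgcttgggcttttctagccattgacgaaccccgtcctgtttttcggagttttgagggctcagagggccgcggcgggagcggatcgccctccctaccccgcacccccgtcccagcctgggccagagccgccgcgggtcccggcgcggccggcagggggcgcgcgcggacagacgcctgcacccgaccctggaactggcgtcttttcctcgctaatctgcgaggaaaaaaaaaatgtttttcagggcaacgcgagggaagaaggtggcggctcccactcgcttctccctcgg
KCNK3: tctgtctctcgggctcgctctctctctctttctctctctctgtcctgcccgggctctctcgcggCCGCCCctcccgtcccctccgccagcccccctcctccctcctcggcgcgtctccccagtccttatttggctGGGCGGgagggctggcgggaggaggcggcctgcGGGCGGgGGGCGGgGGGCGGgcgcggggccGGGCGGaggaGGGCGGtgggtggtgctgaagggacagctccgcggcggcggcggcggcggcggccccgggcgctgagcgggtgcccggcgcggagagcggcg
GABRR2, which rose, had a window of 49.3% G and C with 2 CCAAT words and 1 TATAAA word. GRIK4, which also rose, had 84.3% G and C and 4 GC box words. KCNT1, which fell, had 67.0% G and C and none of the words searched, and KCNK3, which fell as well, had 78.7% G and C and 7 GC box words. Of the 86 genes, 61 had such a window, with a median of 67.0% G and C, against 58.3% over 27305 windows. Those windows were limited neither to protein-coding genes, as the 86 genes are, nor to the features tested. The shares below are therefore set against an unlike set, and the differences were not tested. The GC box word was in 42 of the 61 (68.9%), against 44.6% of all windows. CCAAT was in 20 (32.8%, against 35.7%), TATAAA in 3 (4.92%, against 12%), the AP-1 word TGANTCA in 4 (6.56%, against 7.76%) and the cAMP response word TGACGTCA in 1 (1.64%, against 1.98%). None of these words contains another. A match is a description of the letters and not a binding site. KCNH3, KCNMB4, CACNA1G and GRIK1 have no entry in the table of windows.

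Ionotropic glutamate receptors are tetrameric cation channels of the AMPA, kainate, NMDA and delta classes. Of 9 genes with these prefixes, 3 rose and 3 fell. The kainate receptor subunit gene GRIK1 (chromosome 21, 29536933 to 29939996, RefSeq span on GRCh38.p14 as for the genes below) had 2377 and 1915 normalized reads under siSFPQ-2 and 2184 and 1043 under siSFPQ-3, against 8394 and 6308 in siCtrl. All siSFPQ libraries were far below both siCtrl libraries, the second siSFPQ-3 library lowest, and the means were 1879.8 ± 589 with siSFPQ and 7351 ± 1476 in siCtrl (SD, n = 4 and n = 2). The log2 change was -2.02 ± 0.24 (SE; adjusted p = 8.25e-05). GRIK4 (chromosome 11, 120511748 to 120988906) encodes a kainate subunit that forms channels only together with subunits of the GRIK1 kind, and it had 548 and 526 normalized reads under siSFPQ-2 and 697 and 807 under siSFPQ-3, against 210.4 and 251 in siCtrl. Here the siSFPQ libraries were all above siCtrl and highest with siSFPQ-3, a log2 change of 1.46 ± 0.12 (SE; adjusted p = 5.11e-06). GRIK5, the other subunit of that dependent kind, had 105 and 67.5 under siSFPQ-2 and 91.4 and 104 under siSFPQ-3, against 69.3 and 131 in siCtrl, with overlapping groups and a log2 change of -0.07 (adjusted p = 0.847). Within the kainate receptor genes the changes thus ran in opposite directions.

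The delta receptor gene GRID1, whose product binds cerebellins at synapses, spans 767 kb on chromosome 10 and contains the microRNA gene MIR346. It had 1351 and 1069 normalized reads under siSFPQ-2 and 1253 and 938 under siSFPQ-3, against 1999.6 and 1873 in siCtrl, below siCtrl in every siSFPQ library, a log2 change of -0.76 ± 0.13 (SE; adjusted p = 0.000986). The glutamate-binding NMDA receptor subunits differed. GRIN2C rose with 98.0 and 123 normalized reads under siSFPQ-2 and 116 and 108 under siSFPQ-3, against 64.6 and 79.8 in siCtrl, a log2 change of 0.62 ± 0.18 (SE; adjusted p = 0.0161), and GRIN2D fell with 220.1 and 158 under siSFPQ-2 and 197 and 132 under siSFPQ-3, against 256 and 276 in siCtrl, a log2 change of -0.61 ± 0.19 (SE; adjusted p = 0.0204). In both genes the siSFPQ libraries lay on the same side of siCtrl. GRIN3B, a glycine-binding NMDA subunit, rose by 0.74 (adjusted p = 0.0278), but a siSFPQ-3 library lay between the siCtrl libraries. The AMPA receptor gene GRIA3, GRIK5 and the scaffold gene GRID2IP did not pass, with log2 changes from -0.27 to 0.10. Leaving out the first siCtrl library left GRIN2C (adjusted p = 0.16), GRIN2D (0.094) and GRIN3B (0.0575) short of the threshold, as leaving out the second did for GRIN2D (0.153) and GRIN3B (0.231). GRIN3B was also lost without the first siSFPQ-3 library (0.0582).

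Of the metabotropic glutamate receptor genes, GRM5, a receptor that couples to phospholipase C, had 488 and 479 normalized reads under siSFPQ-2 and 529 and 376 under siSFPQ-3, against 612 and 618 in siCtrl. Every siSFPQ value was below siCtrl, a log2 change of -0.40 ± 0.13 (SE; adjusted p = 0.0274) that was lost without the first (0.138) or the second siCtrl library (adjusted p = 0.153). GRM2, an inhibitory presynaptic receptor, had 80.2 and 52.0 under siSFPQ-2 and 68.8 and 76.0 under siSFPQ-3, against 81.3 and 68.7 in siCtrl, with overlapping groups and a log2 change of -0.13 (adjusted p = 0.658).

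GABA-A receptors are chloride channels. Of 4 genes, GABRR2 rose and GABRD fell. GABRR2 encodes a rho subunit, known from the retina, that can form receptors without other subunit types. It had 258 and 285 normalized reads under siSFPQ-2 and 368 and 355 under siSFPQ-3, against 103 and 123 in siCtrl. The siSFPQ libraries were all above siCtrl, and the log2 change was 1.47 ± 0.13 (SE; adjusted p = 1.22e-05). GABRR1, the neighbouring rho subunit gene on chromosome 6, had 80.2 and 65.3 under siSFPQ-2 and 81.7 and 91.1 under siSFPQ-3, against 81.3 and 60.9 in siCtrl, and the groups overlapped (log2 change 0.17, adjusted p = 0.519). GABRD, the delta subunit of extrasynaptic receptors, had only 4.46 and 7.75 normalized reads under siSFPQ-2 and 12.9 and 6.08 under siSFPQ-3, against 20.7 and 15.5 in siCtrl. The siSFPQ libraries alone did not meet the minimum, so GABRD was admitted by its siCtrl libraries, where it was higher. Its log2 change of -1.19 ± 0.42 (SE; adjusted p = 0.0372) was lost without the first siCtrl (0.225), second siCtrl (0.102), first siSFPQ-2 (0.0775) or second siSFPQ-3 library (0.0844) and with DESeq2 (adjusted p = 0.133).

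Nicotinic acetylcholine receptors are cation channels of 5 subunits, and 2 of their 10 genes rose and 2 fell. CHRNA9 and CHRNA10 encode the alpha subunits that together form the receptor of cochlear hair cells. CHRNA9 had 454 and 419.7 normalized reads under siSFPQ-2 and 464 and 509 under siSFPQ-3, against 795 and 690.1 in siCtrl, and every siSFPQ library was below siCtrl. CHRNA10 had 229 and 217 normalized reads under siSFPQ-2 and 274 and 245 under siSFPQ-3, against 181 and 151 in siCtrl, and every siSFPQ library was above siCtrl. Their log2 changes were thus of opposite sign, -0.68 ± 0.11 (SE; adjusted p = 0.000469) for CHRNA9 and 0.54 ± 0.14 (SE; adjusted p = 0.0075) for CHRNA10, which was lost without the second siCtrl library (adjusted p = 0.112). CHRNA5, an accessory subunit, had 215 and 194 under siSFPQ-2 and 261 and 298 under siSFPQ-3, against 352 and 323 in siCtrl. It was below siCtrl in all siSFPQ libraries, a log2 change of -0.50 ± 0.12 (SE; adjusted p = 0.00696), not kept without siCtrl library 1 (adjusted p = 0.0906). Its neighbour CHRNA3 on chromosome 15, whose span overlaps that of CHRNA5, had low and overlapping values and a log2 change of -0.79 (adjusted p = 0.0831).

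The muscle receptor genes were low apart from CHRNE. CHRND, the delta subunit gene, had 30.3 and 15.5 normalized reads under siSFPQ-2 and 49.5 and 39.5 under siSFPQ-3, against 1.59 and 12.2 in siCtrl. The siCtrl libraries alone did not meet the minimum, so CHRND was admitted by its siSFPQ libraries, where it was higher. All siSFPQ libraries were above siCtrl, a log2 change of 2.45 ± 0.56 (SE; adjusted p = 0.00448) that did not pass without siCtrl library 1, where it was 1.28 (adjusted p = 0.0544), and was 3.63 without siCtrl library 2 (adjusted p = 0.00113). CHRNG, the fetal gamma subunit gene next to it on chromosome 2, had 6.24 and 5.54 under siSFPQ-2 and 12.9 and 4.05 under siSFPQ-3, against 20.7 and 13.3 in siCtrl, with a log2 change of -1.21 (adjusted p = 0.0521). CHRNG met the minimum only through its siCtrl libraries, where it was higher. Over 50.2% of its span CHRNG is overlapped by TIGD1, so its value is uncertain. CHRNE and CHRNB1 had log2 changes of -0.10 and 0.28 and did not pass. The single muscle marker that passed the minimum, of 7, had 71.9 to 86.4 normalized reads in the siSFPQ libraries and 37.5 to 43.2 in siCtrl, and its part in the CHRND value was not tested. CHRNA7 (log2 change -0.31, adjusted p = 0.371), which has a partial copy in the genome, and CHRNB2 (0.25, adjusted p = 0.545) did not pass.

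All of the 4 genes for calcium channel pores changed, those of the low-voltage T type upwards and those of the high-voltage L type downwards. The T-type gene CACNA1G (chromosome 17, 50560715 to 50627474) had 123 and 131 normalized reads under siSFPQ-2 and 145 and 208 under siSFPQ-3, against 59.0 and 58.7 in siCtrl. CACNA1H, the other T-type gene, had 2313 and 2709 under siSFPQ-2 and 2076 and 2363 under siSFPQ-3, against 1589 and 1664 in siCtrl. The siSFPQ libraries were above siCtrl in both, and the log2 changes were 1.32 ± 0.18 (SE; adjusted p = 0.000216) for CACNA1G and 0.53 ± 0.10 (SE; adjusted p = 0.00184) for CACNA1H. LOC102723999 lies over 62.3% of the CACNA1H span, so that value is uncertain where counting does not use strand. CACNA1C, the L-type channel of heart and smooth muscle, had 133 and 88.6 under siSFPQ-2 and 126 and 77.0 under siSFPQ-3, against 179 and 206 in siCtrl, and CACNA1D, known from sinoatrial and neuroendocrine cells, had 113 and 72.0 under siSFPQ-2 and 124 and 102 under siSFPQ-3, against 146 and 165 in siCtrl. Every siSFPQ library was below siCtrl in these genes. Their log2 changes of -0.89 ± 0.23 (SE; adjusted p = 0.00835) and -0.62 ± 0.20 (SE; adjusted p = 0.0271) were the less stable ones. Without the second siCtrl library neither passed (adjusted p = 0.101 for CACNA1C and 0.195 for CACNA1D), and CACNA1D was also lost without the first siCtrl (0.093) or the second siSFPQ-2 library (0.0613).

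Of 7 auxiliary calcium channel genes, 2 rose and 2 fell. The beta subunits bring the pore to the membrane. CACNB4 had 614 and 702 normalized reads under siSFPQ-2 and 688 and 648 under siSFPQ-3, against 348 and 315 in siCtrl, and CACNB3 had 1222 and 1097 under siSFPQ-2 and 836 and 748 under siSFPQ-3, against 1489.5 and 1532 in siCtrl. In CACNB4 every siSFPQ library was above siCtrl and in CACNB3 every one was below, with log2 changes of 1.00 ± 0.11 (SE; adjusted p = 3.92e-05) and -0.66 ± 0.10 (SE; adjusted p = 0.000316). CACNB1, also a beta subunit gene, did not pass (-0.12, adjusted p = 0.454). CACNG6, a gamma subunit of low level, had 60.6 and 49.8 under siSFPQ-2 and 44.1 and 56.7 under siSFPQ-3, against 16.7 and 23.3 in siCtrl, and its log2 change was 1.36 ± 0.25 (SE; adjusted p = 0.00136). The alpha2delta gene CACNA2D4 had 479 and 320.0 under siSFPQ-2 and 462 and 253 under siSFPQ-3, against 575 and 644 in siCtrl, and all siSFPQ libraries were below siCtrl. Its log2 change of -0.73 ± 0.22 (SE; adjusted p = 0.0193) was lost without the first (0.0864) or second siCtrl library (adjusted p = 0.159). CACNA2D1 and CACNA2D2, the targets of gabapentin, had log2 changes of -0.41 and -0.33 and did not pass.

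Of 5 sodium channel genes, 1 rose and 1 fell. SCN4B (chromosome 11, 118133377 to 118152823), a beta subunit linked to resurgent current, had 87.3 and 55.4 normalized reads under siSFPQ-2 and 111 and 66.8 under siSFPQ-3, against 276 and 203 in siCtrl. The siSFPQ libraries were all below siCtrl, a log2 change of -1.60 ± 0.25 (SE; adjusted p = 0.000497). SCN8A, a main sodium channel of neuronal axons, had 1446 and 1277 normalized reads under siSFPQ-2 and 1464 and 1386 under siSFPQ-3, against 1415 and 1191 in siCtrl. Its groups overlapped, with a log2 change of 0.10 (adjusted p = 0.452). The nociceptor gene SCN11A was lower in all siSFPQ libraries than in siCtrl but did not pass, with a log2 change of -0.17 (adjusted p = 0.337).

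Of 17 genes for voltage-gated potassium channel alpha subunits, 7 fell, 1 rose and 9 did not pass, with a median log2 change of -0.47. KCNH3, which encodes a channel of the ELK branch known from the forebrain, was the gene that rose. On chromosome 12 (49539030 to 49558337) it had 156 and 193 normalized reads under siSFPQ-2 and 189 and 195 under siSFPQ-3, against 59.8 and 51.0 in siCtrl. Its siSFPQ libraries were all above siCtrl, a log2 change of 1.71 ± 0.16 (SE; adjusted p = 1.94e-05). The related KCNH2, the hERG channel of cardiac repolarization, had 463 and 388 under siSFPQ-2 and 457 and 406 under siSFPQ-3, against 807 and 943 in siCtrl. Every siSFPQ value was below siCtrl, a log2 change of -1.03 ± 0.12 (SE; adjusted p = 6.48e-05), while KCNH1, KCNH4 and KCNH6 did not pass (-0.25, -0.56 and 0.65).

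KCNQ1, the slow potassium channel of heart and epithelia, had 1177 and 953 normalized reads under siSFPQ-2 and 969 and 874 under siSFPQ-3, against 1421 and 1683 in siCtrl. Each siSFPQ library was below siCtrl, a log2 change of -0.65 ± 0.12 (SE; adjusted p = 0.00115). The long non-coding RNA KCNQ1OT1 lies over 22.7% of the KCNQ1 span, and whether counting used strand is not stated in the labels or file headers. Of the fast-spiking KCNC genes, KCNC1 fell by 0.55 (adjusted p = 0.00461), a call lost without the first siCtrl library (0.0596), and KCNC4, at 509.7 normalized reads on average with siSFPQ and 506 in siCtrl, had a log2 change of 0.01 (adjusted p = 0.95). KCNG3, a silent subunit that modifies other channels, fell by 0.76 (adjusted p = 0.00282), and lost the call without the second siCtrl library (0.0538). Of the same role, KCNA2, KCND1, KCNF1 and KCNG1 did not pass either, with log2 changes from -0.96 to 0.12.

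Of 6 genes for calcium- and sodium-activated potassium channels, 1 rose and 2 fell. KCNN2 and KCNN3 encode small-conductance channels that shape the afterhyperpolarization. KCNN3 had 264 and 267 normalized reads under siSFPQ-2 and 355 and 482 under siSFPQ-3, against 193 and 188 in siCtrl, all above siCtrl, a log2 change of 0.79 ± 0.14 (SE; adjusted p = 0.000964). KCNN2 had 25.8 and 26.6 under siSFPQ-2 and 22.6 and 17.2 under siSFPQ-3, against 44.6 and 56.5 in siCtrl, all below siCtrl, a log2 change of -1.11 ± 0.26 (SE; adjusted p = 0.0052) that was lost without the second siCtrl library (adjusted p = 0.0774). The related KCNN1 and KCNN4 did not pass, with log2 changes of 0.34 and 0.21. KCNT1, the sodium-activated channel, lies on chromosome 9 (135702185 to 135795502) and had 47.2 and 28.8 normalized reads under siSFPQ-2 and 45.2 and 23.3 under siSFPQ-3, against 83.7 and 76.4 in siCtrl. All siSFPQ libraries were below siCtrl, a log2 change of -1.18 ± 0.30 (SE; adjusted p = 0.00824) that was lost without the first (0.0818) or second siCtrl library (adjusted p = 0.0598). KCNMA1, the pore of the large-conductance channel, had 95.4 and 64.2 under siSFPQ-2 and 82.8 and 92.2 under siSFPQ-3, against 83.7 and 134 in siCtrl, with overlapping groups (log2 change -0.35, adjusted p = 0.237).

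Inward rectifiers and tandem-pore (K2P) channels carry resting potassium currents. Of 6 inward rectifier genes 2 rose and 1 fell. KCNJ10, best known as the potassium channel of glia, had 40.1 and 35.4 normalized reads under siSFPQ-2 and 68.8 and 48.6 under siSFPQ-3, against 10.4 and 16.6 in siCtrl. KCNJ14 had 201 and 214 under siSFPQ-2 and 251 and 283 under siSFPQ-3, against 434 and 462 in siCtrl. The siSFPQ libraries were all above siCtrl in KCNJ10, a log2 change of 1.75 ± 0.28 (SE; adjusted p = 0.000602), and all below in KCNJ14, one of -0.93 ± 0.12 (SE; adjusted p = 0.00012). Part of the KCNJ14 span is shared with the coding gene GRWD1 (12.7% of the span). KCNJ11, the pore of ATP-sensitive channels, rose by 0.90 on the log2 scale (adjusted p = 0.0064), a call not kept without siCtrl library 1 (adjusted p = 0.0773). KCNJ4, KCNJ16 and KCNJ12, which has a near-identical copy in the genome, did not pass, with log2 changes from -0.38 to -0.12.

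Of 7 tandem-pore genes 2 rose and 1 fell. KCNK3, an acid-sensitive background channel, lies on chromosome 2 (26692722 to 26733420) and had 225 and 190.5 normalized reads under siSFPQ-2 and 187 and 159 under siSFPQ-3, against 399 and 399.9 in siCtrl. KCNK13, a channel known from microglia, had 417 and 429.6 under siSFPQ-2 and 395 and 381 under siSFPQ-3, against 199 and 197 in siCtrl. Every siSFPQ value was below siCtrl in KCNK3 and above it in KCNK13, with log2 changes of -1.08 ± 0.13 (SE; adjusted p = 0.000102) and 1.03 ± 0.11 (SE; adjusted p = 3.56e-05). KCNK6 had 143 and 133 under siSFPQ-2 and 145 and 183 under siSFPQ-3, against 78.9 and 85.3 in siCtrl, a log2 change of 0.86 ± 0.16 (SE; adjusted p = 0.00151), and 16.7% of its span is shared with YIF1B. The acid- and alkali-sensitive KCNK5 had 332 and 405 under siSFPQ-2 and 298 and 356 under siSFPQ-3, against 331 and 378 in siCtrl, and its groups overlapped (log2 change -0.03, adjusted p = 0.862). KCNK4, KCNK7 and KCNK15 did not pass either.

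Of 9 genes for auxiliary and regulatory subunits of potassium channels 3 rose and 1 fell. KCNMB4, the beta subunit that dominates large-conductance channels of the brain, lies on chromosome 12 (70366290 to 70434292) and had 1106 and 1118 normalized reads under siSFPQ-2 and 1053 and 1095 under siSFPQ-3, against 453 and 399 in siCtrl. Every siSFPQ library was above siCtrl, and the libraries of each group were close together, with means of 1093 ± 28.4 with siSFPQ and 426 ± 38.7 in siCtrl (SD, n = 4 and n = 2). The log2 change was 1.36 ± 0.10 (SE; adjusted p = 2.19e-06). KCNIP3, a calcium-binding protein that joins voltage-gated potassium channels and also binds DNA, lies on chromosome 2 (95297347 to 95386077) and had 181 and 158 normalized reads under siSFPQ-2 and 189 and 118 under siSFPQ-3, against 328 and 387 in siCtrl. All siSFPQ libraries were below siCtrl, a log2 change of -1.16 ± 0.18 (SE; adjusted p = 0.000554). KCNAB2, a cytoplasmic beta subunit, had 751 and 671 under siSFPQ-2 and 773 and 742 under siSFPQ-3, against 568 and 495 in siCtrl, a log2 change of 0.47 ± 0.10 (SE; adjusted p = 0.00382) that was lost without the second siCtrl library (adjusted p = 0.0775). KCNE5 is an auxiliary subunit gene with few reads. It had 14.3 and 13.3 normalized reads under siSFPQ-2 and 22.6 and 20.3 under siSFPQ-3, against 8.77 and 2.22 in siCtrl. Both siCtrl values lay under the minimum, so KCNE5 was admitted by its siSFPQ libraries, where it was higher. Its log2 change of 1.70 ± 0.45 (SE; adjusted p = 0.0101) was lost without the second siCtrl library, where it was 0.90 (adjusted p = 0.13), and with DESeq2 (adjusted p = 0.0609). KCNE1, KCNIP2, KCNAB3, KCNMB3 and KCNRG did not pass, with log2 changes from -0.30 to 0.15.

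The siRNAs were also compared with siCtrl separately, with the same siCtrl libraries in both comparisons. With siSFPQ-2, 19 of the 86 genes rose and 21 fell, where the background was 21.2% and 17.9% of all features tested. With siSFPQ-3, 21 rose and 21 fell, where it was 23.0% and 20.4%. The number that fell with siSFPQ-2 was 11 without the first siCtrl library and 13 without the second or without the second siSFPQ-2 library, and with siSFPQ-3 it was 13 without the second siCtrl library. Over all features tested the number that fell with siSFPQ-2 was 1792, 1849 and 1984 in these cases, against 3906 with all libraries, and with siSFPQ-3 it was 2127, against 4436. Because the controls are shared, the agreement between the siRNAs is not a separate result, and the values stand side by side. GRIK1 had log2 changes of -1.77 with siSFPQ-2 and -2.27 with siSFPQ-3. KCNN3 had 0.48 and 1.11 in that order, and CACNB3 had -0.38 and -0.93.

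**Figure D2:**
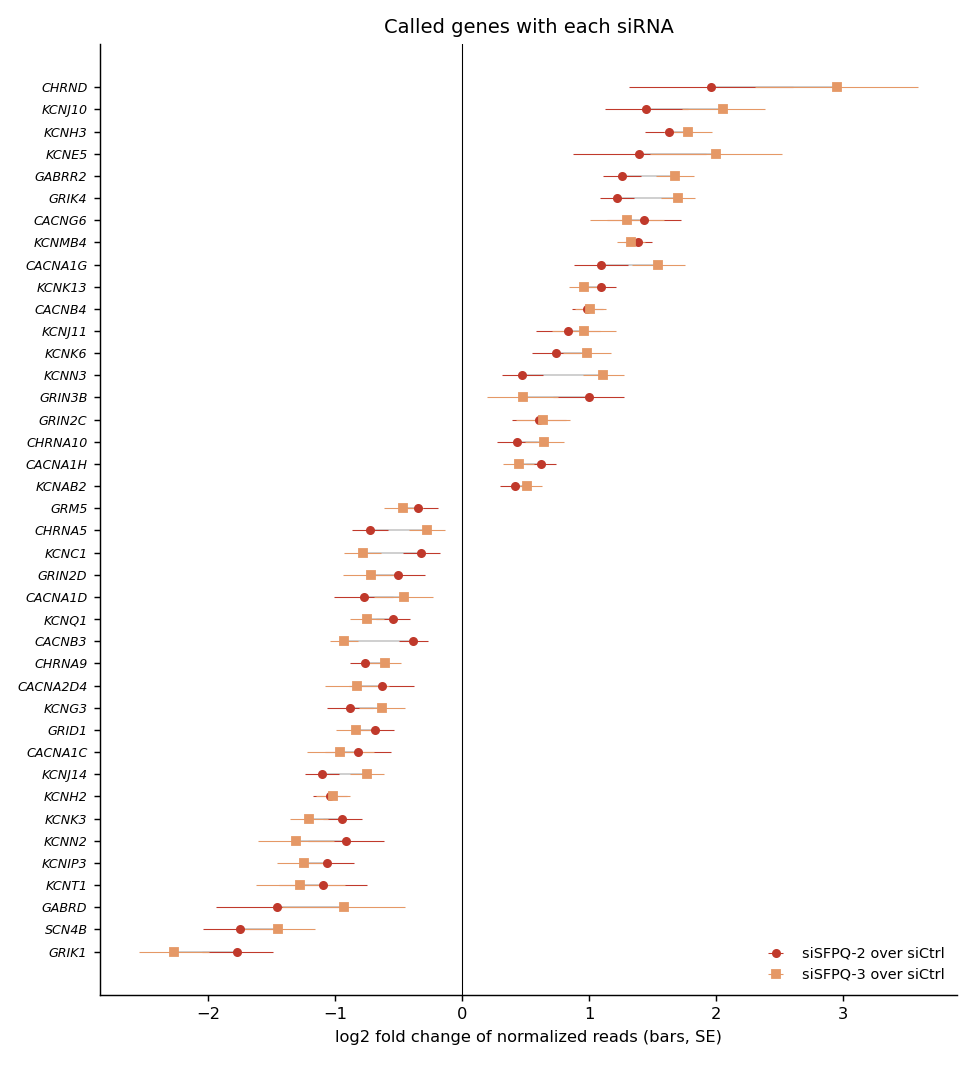
Log2 fold change over siCtrl with siSFPQ-2 (red circles) and with siSFPQ-3 (orange squares), with standard errors, for 40 of the 44 genes that passed the test over both siRNAs. The comparisons share the siCtrl libraries. GRIK1 is lowest with siSFPQ-3 and CHRND highest, and the standard errors are widest for low genes such as CHRND, KCNE5 and GABRD.

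Between siSFPQ-3 and siSFPQ-2, none of the 86 genes passed the limma test in either direction, where the background was 0.0781% higher and 0.023% lower. Without adjustment 14 genes had p below 0.05 (16.3%), against 12.5% of all features tested. CACNB3 had the smallest p, with a log2 difference of -0.55 (SE 0.11, adjusted p = 0.095). KCNN3 followed with 0.64 (SE 0.16, adjusted p = 0.144), KCNRG with 0.74 and GRIK4 with 0.48. DLEU2 lies over 100% of the KCNRG span and TRIM13 over 55.2%, so the KCNRG value is uncertain. In CACNB3 the values were 836 and 748 with siSFPQ-3 against 1222 and 1097 with siSFPQ-2, so the libraries of the siRNAs did not overlap. edgeR on recovered whole reads called none, with 15 at an unadjusted p below 0.05, and DESeq2 called CACNB3 lower. Over all features tested DESeq2 called 208 higher and 47 lower, against 17 and 5 by limma. The fit without the first siSFPQ-3 library has a single library of that siRNA, and it too called more of all features. Without the first siSFPQ-3 library KCNN3 was called higher and CACNB3 and GRIK1 lower.

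The spans of the 86 genes ran from 1.47 to 768 kb in RefSeq, with a median of 42.1 kb. Of 29 genes under 20 kb, 9 rose and 5 fell, of 32 genes of 20 to 100 kb 6 rose and 10 fell, and of 25 genes over 100 kb 5 rose and 9 fell. The features tested that have a RefSeq span, which were not limited to protein-coding genes as the 86 genes are, had other shares. Under 20 kb 16.2% of 7447 rose and 28.6% fell, at 20 to 100 kb 29.2% of 6580 rose and 20.5% fell, and over 100 kb 49.5% of 2652 rose and 12.8% fell. The long genes that rose were GRIK4 (477 kb), CACNB4 (266 kb), KCNN3 (173 kb), KCNK13 (124 kb) and KCNAB2 (109 kb). The longest that fell were GRID1 (767 kb), CACNA1C (727 kb), GRM5 (561 kb), KCNN2 (441 kb), KCNQ1 (404 kb) and GRIK1 (403 kb). The difference between these shares was not tested.

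**Figure D3:**
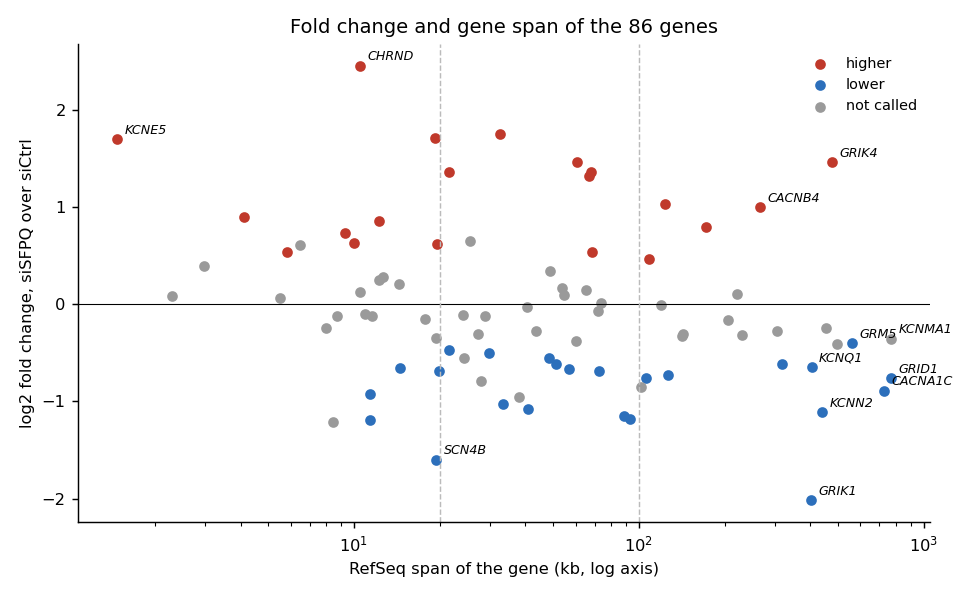
Log2 fold change of normalized reads, siSFPQ over siCtrl, against the RefSeq span of each of the 86 genes on a log axis, with dashed lines at 20 and 100 kb. Red points rose, blue points fell and grey points did not pass. Over 100 kb 5 genes rose and 9 fell.

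For the distribution of polymerase along a gene, the deposited profiles of 500 bins were used, of which the middle 300 were taken as the gene. The ratio of the mean signal of the last 100 of these bins to that of the first 100 was compared between siSFPQ and siCtrl. Of the 86 genes, 62 had a profile and a mean of at least 50 normalized reads, and in 4 the ratio rose and in 5 it fell. Over the 16780 features tested the ratio rose in 8.27% and fell in 2.83%, and its median log2 change was 0.03 for the 62 genes, against 0.14 over these features. With the first 10 gene bins left out the medians were -0.05 and 0.03, and the 62 genes also had -0.03 without the first siSFPQ-3 library. Among the 31 genes with a mean of at least 200 normalized reads the median was -0.08. Leaving out siCtrl libraries changed this result: without the first the ratio rose in 0 and fell in 0 of the 62 genes (20 had an unadjusted p below 0.05), and without the second it rose in 0 and fell in 1 (15 unadjusted). Of the 16780 features, 7 rose and 0 fell without the first and 213 rose and 58 fell without the second, against 1387 and 475 with all libraries. On leaving out any 1 siSFPQ library it rose in 2, and it fell in 3 without the second siSFPQ-2 library. How the profiles were scaled between libraries is not stated in the labels or file headers. That scale enters the ratio through the pseudocount of 1.06 signal, which was the same for all libraries. It matters most where the signal lies near or below the pseudocount, as late in KCNG3 (0.370 to 0.624 over the libraries) and early in KCNK3 (0.289 to 1.01). Some late siSFPQ signals of KCNT1 and GRIK1 are as low.

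GRIK1 had the largest fall of this ratio. In its first 100 bins the signal was 41.1 and 35.5 under siSFPQ-2 and 34.4 and 18 under siSFPQ-3, against 88.9 and 72.8 in siCtrl. In its last 100 bins it was 2.59 and 1.18 under siSFPQ-2 and 3.13 and 0.972 under siSFPQ-3, against 28.0 and 22.2 in siCtrl. The siSFPQ libraries were below siCtrl at both ends and further below at the late end, a log2 change of the ratio of -1.82 ± 0.21 (SE; adjusted p = 0.00773), which missed the threshold without the first siCtrl library (adjusted p = 0.0608). CACNB4 differed in form. Its early signal was 56.2 and 62.3 under siSFPQ-2 and 60.3 and 55.2 under siSFPQ-3, against 25 and 21.0 in siCtrl, and its late signal was 19.7 and 21.0 under siSFPQ-2 and 19.6 and 12.4 under siSFPQ-3, against 21.3 and 23.6 in siCtrl. The siSFPQ libraries were thus above siCtrl early and slightly below it late, although the gene as a whole was among those that rose. The log2 change of the ratio was -1.62 ± 0.21 (SE; adjusted p = 0.0094). KCNT1 had late signals of 2.47 and 0.685 under siSFPQ-2 and 1.56 and 0.211 under siSFPQ-3, against 7.20 and 8.76 in siCtrl, a change of -1.17 ± 0.16 (SE; adjusted p = 0.0109). The ratio also fell in KCNAB2 (-0.64) and KCNK3 (-0.65). Both of these calls were lost without the second siSFPQ-2 or the second siSFPQ-3 library. That of KCNK3 was also lost with narrower windows at the gene ends and with a smaller pseudocount. Without the first or second siCtrl library CACNB4 (adjusted p = 0.0605 and 0.0591) and KCNT1 (0.0691 and 0.0662) missed the threshold as well, and so did KCNAB2 and KCNK3.

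The ratio rose in GRM2, KCNG3, KCNMB4 and GRM5. GRM2, which did not pass as a whole gene, had late signals of 11.2 and 7.83 under siSFPQ-2 and 10.6 and 15.0 under siSFPQ-3, against 5.06 and 3.30 in siCtrl. Every siSFPQ library was above siCtrl there, while early signals averaged 17.2 ± 5.01 with siSFPQ (SD, n = 4) and 24 ± 2.26 in siCtrl (SD, n = 2). The log2 change of the ratio was 1.70 ± 0.24 (SE; adjusted p = 0.0109), and it missed the threshold without the first or second siCtrl library (0.0659 and 0.067). KCNG3 had a change of 0.76 ± 0.13 (SE; adjusted p = 0.0157), and its early signal was 2.40 on average with siSFPQ, against 4.81 in siCtrl, and the late signal was 0.493 and 0.497 in that order. KCNMB4 had a change of 0.75 ± 0.18 (SE; adjusted p = 0.0382), and its signal with siSFPQ was higher at both ends, and more so late, at 8.71, against 1.80 in siCtrl. The calls of KCNG3 and KCNMB4 were lost when the first 10 gene bins were left out (adjusted p = 0.0534 and 0.216). So was the call of GRM5, which was also lost with a smaller pseudocount. Without either siCtrl library KCNG3 and KCNMB4 lost their calls as well. Those of KCNMB4 and GRM5 were lost on leaving out any single library.

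**Figure D4:**
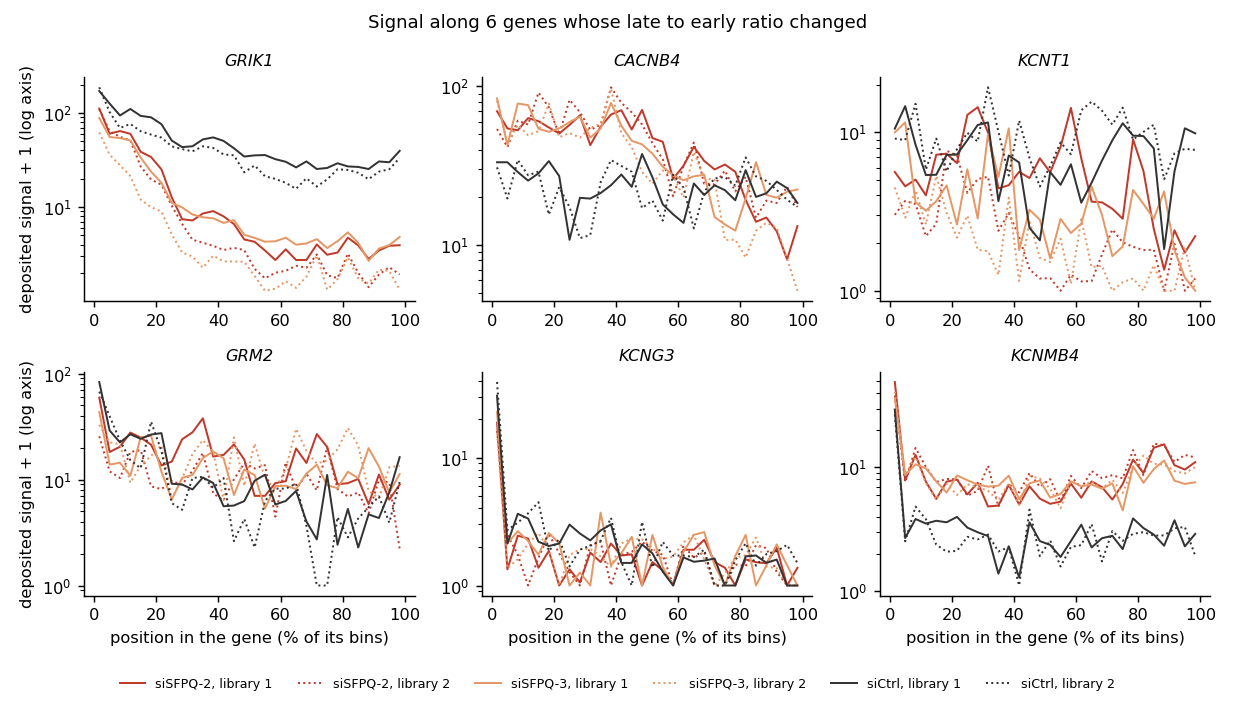
Deposited signal plus 1 on a log axis along 6 genes, averaged in 30 segments of 10 bins, against the position in the gene in percent of its bins. Red and orange lines are the siSFPQ libraries and dark lines siCtrl. In GRIK1 the siSFPQ lines fall away from siCtrl along the gene, in CACNB4 they start above siCtrl and end at or below it, and in KCNMB4 they stay above it.

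Genes that work with these channels and receptors were read from 5 further lists, and their counts stand beside the 24.8% of all features tested that rose and the 23.2% that fell. Of 48 listed genes for other channels 28 were tested, and 12 of these rose and 4 fell. The 3 inositol trisphosphate receptor genes, which release calcium from the endoplasmic reticulum, rose: ITPR3 had 594 and 504 normalized reads under siSFPQ-2 and 658 and 681 under siSFPQ-3, against 210.4 and 247 in siCtrl, a log2 change of 1.40 ± 0.12 (SE; adjusted p = 6.9e-06), ITPR2 rose by 0.80 and ITPR1 by 0.89. The glycine receptor gene GLRA3 fell, with 4236 and 4447 under siSFPQ-2 and 3597 and 2712 under siSFPQ-3, against 5927 and 5362 in siCtrl, a log2 change of -0.61 ± 0.13 (SE; adjusted p = 0.00254), as did the acid-sensing channel gene ASIC1 (-0.53). Of 50 scaffold, kinase and accessory genes 37 were tested, and 9 rose and 8 fell. CAMK2D, a subunit of a calcium- and calmodulin-dependent kinase, had 1182 and 1545 normalized reads under siSFPQ-2 and 1306 and 1362 under siSFPQ-3, against 266 and 239 in siCtrl, a log2 change of 2.41 ± 0.12 (SE; adjusted p = 2.2e-07), and CAMK2G fell by 0.97. LYPD6, a modulator of nicotinic receptors, rose by 1.75 and its relative LYPD6B by 2.45. LRRC26, an auxiliary subunit of the large-conductance potassium channel, fell to 109 normalized reads on average with siSFPQ, against 264 in siCtrl.

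Of 28 genes for other neurotransmitter receptors 14 were tested, and 4 rose and 2 fell. The adenosine receptor gene ADORA1 had 239 and 270.2 normalized reads under siSFPQ-2 and 307 and 378 under siSFPQ-3, against 45.4 and 43.2 in siCtrl, above siCtrl in all siSFPQ libraries, a log2 change of 2.70 ± 0.15 (SE; adjusted p = 4.74e-07). The adrenergic receptor gene ADRA2A rose by 2.66, the nociceptin receptor gene OPRL1 fell by 1.41 and the muscarinic receptor gene CHRM3 fell by 0.39 (adjusted p = 0.048). Of 26 genes for transmitter synthesis and transport 13 were tested, and 10 rose and 0 fell, with a median log2 change of 0.81, and the lowest of the other 3 was ALDH5A1 (-0.20, adjusted p = 0.267). The GABA transporter gene SLC6A13 had 445 and 612 normalized reads under siSFPQ-2 and 502 and 492 under siSFPQ-3, against 96.4 and 96.4 in siCtrl, and its neighbour of the same family, the betaine and GABA transporter gene SLC6A12, had 139 and 207 under siSFPQ-2 and 161 and 176 under siSFPQ-3, against 19.1 and 26.6 in siCtrl. Both were higher in every siSFPQ library, with log2 changes of 2.39 ± 0.14 (SE; adjusted p = 6.43e-07) and 2.85 ± 0.22 (SE; adjusted p = 3.77e-06). GAD1, which makes GABA and is also in the neuron marker list, rose by 2.05, and the acetylcholinesterase gene ACHE by 1.09. REST is a repressor of neuronal genes, many channel genes among them, and it had 1167 and 1198 under siSFPQ-2 and 1042 and 1206 under siSFPQ-3, against 1166 and 1120.0 in siCtrl. Its groups overlapped, with a log2 change of 0.01 (adjusted p = 0.935). Of 14 genes for REST and its corepressors 13 were tested, and 4 rose, HDAC1 (0.69) and RCOR1 (0.40) among them, and 2 fell, which were RCOR2 (-0.65) and EHMT2 (-0.55). In these lists ITPR1, LYPD6B, GAD1, ACHE and REST were chosen after their values were seen.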

How the data were processed

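PRO-seq libraries of SBC-3 cells were analysed from the deposited tables. The submitters' processing notes name DESeq2 1.38.1, Bowtie2, UMI-tools, SAMtools 1.3.1 and cutadapt 1.14, and the builds hg38 and dm6. Per the file headers, the authors deposited normalized reads per feature (signal, mean over libraries included) with log2 fold changes, fold ratios, p-values and adjusted p-values, and test statistics with their errors (score). The authors also deposited binned signal profiles along genes. The deposited values are whole reads divided by a library factor: 100% of them came out whole at a tolerance of 0.1 read.

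After removal of 240 repeated lines from 26067, 25827 features remained, and 21773 with at least 10 normalized reads in at least 2 libraries were tested. Groups came from the labels. One model with 3 groups was fitted to log2(value + 1) in limma 3.58.1 (R 4.3.3), with the siSFPQ groups averaged against siCtrl. Alternatives were edgeR 4.0.16 and DESeq2 1.42.0 on recovered whole reads, other pseudocounts, filters and scaling, the replicate block and leaving out each library. Profile ratios used log2 with a pseudocount of 1.06 signal and features with a mean of at least 50. The 101st to 400th of 500 bins were assumed to be the gene, which the sources used here do not give. Figures used Python 3.11.15, pandas 2.3.3 and matplotlib 3.10.9. Fits were tested on simulated data. Same-numbered libraries correlated at 0.053 to 0.382 in their deviations and were not treated as pairs.

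The members and lists were chosen with earlier results of these data known. Named by rule were, per role, up to 2 genes in each direction with the smallest p, the gene with the smallest p where none passed and the one highest in siCtrl, then the 5 largest rises and falls with a mean of at least 50, up to 5 genes in each direction between the siRNAs, up to 3 for the profile ratio and up to 2 per partner list. Other genes were named after their values were seen. All 86 genes matched RefSeq by symbol, and 55 are overlapped by another RefSeq gene. A few genes enter the counts but are not reported here by name.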

Additional observations from a re-analysis of the deposited data

How the results depend on the processing

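Of the 44 genes called in siSFPQ against siCtrl, 24 kept their call and direction in every one of 15 alternatives that tested them, 20 lost it in at least 1, and 0 reversed. Leaving out 1 library gave 16 to 20 genes that rose and 14 to 28 that fell, and the cause was not tested. For siSFPQ-2 the fallen genes ranged from 11 to 27 and for siSFPQ-3 from 13 to 21. Between siSFPQ-3 and siSFPQ-2, leaving out 1 library called 0 to 1 genes higher and 0 to 2 lower by limma, with 8 to 20 at an unadjusted p below 0.05. DESeq2 called 1 lower (CACNB3), and edgeR called 0, with 15 at an unadjusted p below 0.05. With the replicate block, limma called 20 genes higher and 27 lower in siSFPQ against siCtrl, 2 higher (GRIK4 and KCNN3) and 1 lower (CACNB3) between the siRNAs, and 3 higher and 4 lower for the profile ratio. For that ratio, leaving out the first 10 gene bins gave 1 higher gene, and leaving out 1 library gave 0 to 2 higher and 0 to 5 lower. Without 1 siCtrl library that group has 1 sample, assumed to vary like the other groups. GRM2, which was not called, had a log2 change of 0.027 without the second siSFPQ-2 library, with a range of -0.28 to 0.027 over the libraries left out. SCN8A, also not called, had -0.024 without the second siCtrl library, with a range of -0.024 to 0.22. Other pseudocounts, filters and scalings moved no count of called genes among the 86 against siCtrl by over 1.5 times. Between the siRNAs the calls over all features were 17 higher and 5 lower. They were 5 and 0 at a pseudocount of 0.1 and 3 and 0 at a mean of at least 50. At the same total they were 1 and 0, with the replicate block 572 and 188, and with DESeq2 208 and 47. GABRD, KCNE5 and CHRND, which had few reads, were among the genes that lost their call, while KCNJ10 and CACNG6 kept theirs.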
